A study of Mus musculus with 18 samples.

Results

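The immunity-related GTPases (IRGs) and the Mx proteins are GTPases that interferon induces in mouse cells. The 10 genes described here were taken by name. The regulatory IRGs are Irgm1, Irgm2 and Igtp, the effector IRGs are Iigp1, Tgtp1, Tgtp2, Ifi47 and Gm12250 (named Irgb10 by RefSeq), and the Mx genes are Mx1 and Mx2. All 10 were among the 55401 genes of the endothelial table and passed its filter on low values. Of the 22612 genes of the EO771 table, 9 were members, all of which passed, and Gm12250 was not analysed there.

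RNA was sequenced from 18 mouse libraries, 3 in each of 6 groups. Blood vessel endothelial cells (BECs) came from the mammary fat pad (BEC normal) or from primary EO771 tumours (BEC tumour), and high endothelial cells (HECs), which line the venules where lymphocytes enter lymph nodes, came from nodes without tumour (HEC normal) or from tissue labelled lymph node metastases (HEC tumour). Per the study's methods, the mice were wild-type C57BL/6 females, and the sort took CD45-negative CD31-high cells, with PNAd-positive cells as HECs and PNAd-negative cells as BECs. EO771 is a breast cancer line from C57BL/6 mice, and its cells were treated for 48 h with 12-HETE at 100 nM, the lipid that ALOX12 makes from arachidonic acid, or with a vehicle of DMSO in saline. The methods give the age of the mice at purchase only, and an age at the sort is not stated in the sources used here. The study's legends call the replicates independent experiments, and whether animals were pooled for a library is not stated.

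IRGs are cytosolic enzymes that gather on the membranes of vacuoles holding intracellular parasites and bacteria. The effector IRGs, which carry the usual GKS motif in their nucleotide-binding loop, disrupt those membranes, while the regulatory IRGs, with a GMS motif, keep effectors inactive on the cell's own membranes. The machinery that conjugates ATG8 proteins to lipid helps to direct them. Transcription of IRG genes follows interferon-γ, which acts at GAS elements, and type I interferon, which acts at ISRE elements. Mx proteins are dynamin-like GTPases that block the replication of viruses and are induced by type I and type III interferons. In C57BL/6 mice both Mx genes carry inactivating mutations, so their transcripts are measured here as marks of transcription and not of working protein.

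In the GRCm38 annotation 7 of the members lie in a pair of clusters on chromosome 11. Irgm1 (chr11:48861968-48871683, minus strand), Tgtp1 (chr11:48985327-48994172, minus), Tgtp2 (chr11:49057194-49064206, minus) and Ifi47 (chr11:49076587-49096974, plus) form the first. Gm12250 (chr11:58187739-58189012), Igtp (chr11:58199556-58207591) and Irgm2 (chr11:58199618-58222782) form the second, all on the plus strand. Mx1 (chr16:97447035-97462907, minus) and Mx2 (chr16:97535308-97560900, plus) are neighbours, and Iigp1 is on chromosome 18. The annotation lists Gm12250 as a processed pseudogene and Mx2 as a polymorphic pseudogene, and the other 8 as protein coding. Tgtp1 and Tgtp2 are near-identical copies: 2804 of 2810 aligned transcript bases (99.8%) were the same. Of all 100-base windows of their transcripts, 73.1% for Tgtp1 and 76.8% for Tgtp2 also occurred in another gene, so the split of reads between them is uncertain. That share was at most 5.2% for the other 8 members. Exons of Irgm2 and Igtp overlap by 162 bases on the same strand.

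RefSeq promoter windows, of 250 bases before and 50 after the transcription start (GRCm38.p6), were found for 7 of the 10 members. They were searched on both strands for 2 motifs. The ISRE-type motif was GAAA, any 2 bases and GAAA again (on the other strand TTTC, any 2 bases and TTTC), and the GAS-type motif was TTCNNNGAA, which reads the same on both strands in its fixed letters. The ISRE-type letters were present in 6 of the 7 windows and in 3.45% of 32544 distinct mouse windows of the same length. The GAS-type letters were present in 5 of the 7 and in 8.33% of all windows. Both occurred in 5 of the 7 and in 0.455% of all. A match is a description of letters, not a measured binding site, and the windows of gene copies share descent.

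Irgm2, Igtp, Tgtp1 and Tgtp2 shared a fixed arrangement, the GAS-type letters followed after 2 bases by the ISRE-type letters. Among the 32544 windows 5 held this arrangement, those of these 4 genes and of Gm12185, another IRG gene. The arrangement was set from the windows of these 4 genes, which are among those counted. Its rarity is therefore a description and carries no test. The stretches below run 5′ to 3′ on the gene's strand, with the motif letters in capitals, and start 10 bases before the GAS-type match.
Irgm2: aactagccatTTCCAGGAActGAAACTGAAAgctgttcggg
Igtp: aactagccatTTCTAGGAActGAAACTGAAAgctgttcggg
Tgtp1: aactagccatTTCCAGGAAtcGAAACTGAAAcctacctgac
Tgtp2: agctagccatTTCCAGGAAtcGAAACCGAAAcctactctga
The arrangement began 75 bases before the start of Irgm2, 45 before that of Igtp, 88 before that of Tgtp1 and 81 before that of Tgtp2. Over the whole windows, Irgm2 and Igtp were 92.1% identical and Tgtp1 and Tgtp2 74.0%.

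The 3 windows that departed from this arrangement are shown whole, again with motif letters in capitals, since they show the range among the members.
Irgm1, chr11:48871371-48871670, minus strand: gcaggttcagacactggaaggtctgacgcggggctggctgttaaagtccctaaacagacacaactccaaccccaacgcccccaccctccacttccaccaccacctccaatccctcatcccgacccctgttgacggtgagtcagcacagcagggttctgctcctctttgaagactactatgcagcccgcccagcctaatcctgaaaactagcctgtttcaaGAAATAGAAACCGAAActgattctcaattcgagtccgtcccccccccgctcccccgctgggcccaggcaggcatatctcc
Gm12250, chr11:58183593-58183892, plus strand: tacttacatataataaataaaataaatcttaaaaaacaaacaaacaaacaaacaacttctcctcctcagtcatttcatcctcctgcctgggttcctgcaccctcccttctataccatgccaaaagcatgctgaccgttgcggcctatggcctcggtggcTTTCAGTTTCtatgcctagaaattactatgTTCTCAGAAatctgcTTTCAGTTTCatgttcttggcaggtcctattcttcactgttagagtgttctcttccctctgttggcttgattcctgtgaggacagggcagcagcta
Ifi47, chr11:49076337-49076636, plus strand: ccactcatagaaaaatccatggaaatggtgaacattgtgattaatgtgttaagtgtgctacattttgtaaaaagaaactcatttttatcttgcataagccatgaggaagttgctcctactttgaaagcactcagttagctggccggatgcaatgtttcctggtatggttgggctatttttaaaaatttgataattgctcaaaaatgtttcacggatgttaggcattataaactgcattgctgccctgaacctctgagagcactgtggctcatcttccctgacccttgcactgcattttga
Irgm1 had 2 overlapping ISRE-type matches, which began 30 and 24 bases before its start, and no GAS-type match. Gm12250 had 2 ISRE-type matches on the other strand, 91 and 46 bases before its start, on either side of a GAS-type match at 61 bases, and its RefSeq window lies before the span that the other annotation gives the gene. Neither set of letters occurred in the window of Ifi47, which says only that these letters are absent from these 300 bases.

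**Figure D1:**
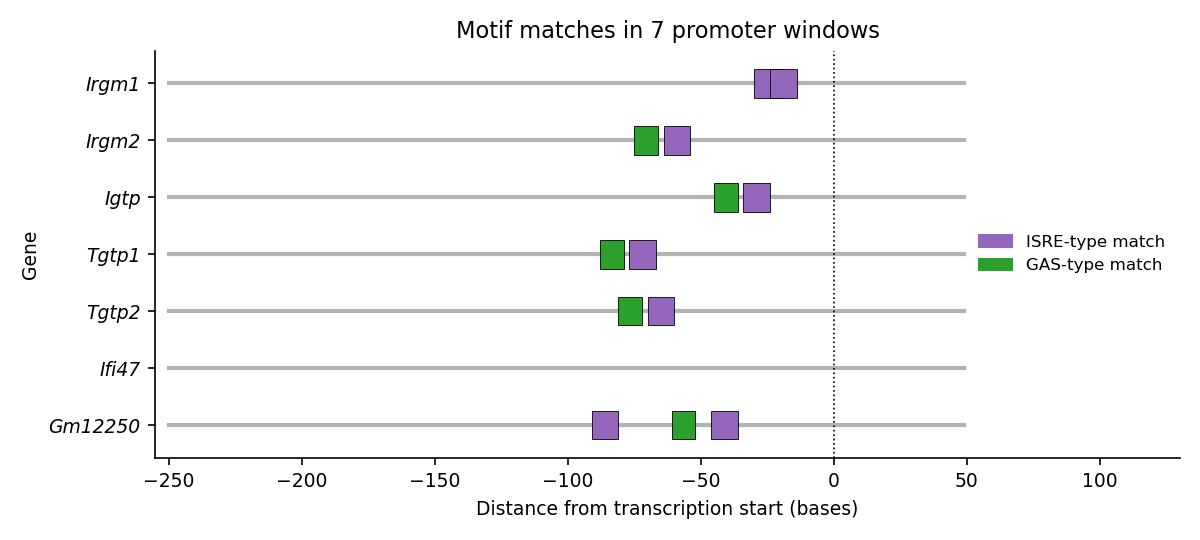
Positions of ISRE-type (purple) and GAS-type (green) motif matches in the RefSeq promoter windows of 7 members, as the distance in bases from the transcription start (dotted line); each grey line is 1 window. In Irgm2, Igtp, Tgtp1 and Tgtp2 the GAS-type match sits 2 bases before the ISRE-type match, and Ifi47 has no match.

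Deposited totals ran from 56.4 to 79.4 M per endothelial library and from 17.3 to 18.6 M per EO771 library. Low values in the endothelial table piled up at 4, 8 and 12 (13624 values of 4, against 3991 of 3 and 2319 of 5), though all whole numbers occurred, so how 1 unit there relates to 1 fragment is not known. The HEC marker Glycam1 was at 0 in all BEC libraries and at 39130 or more normalised counts in each HEC library, while Ccl21a, a chemokine of these venules, was at 0 in all HEC libraries. Chst4 was at 0 in all BEC libraries and at 59210 or more in HEC tumour, but HEC normal replicate 2 stood apart at 4.07 against 19910 and 20210 in the other 2. Without that library, 8 members were still called lower in HEC tumour against HEC normal. Fut7 stood at 14260 in HEC tumour replicate 3 against 66480 and 65520 in the other 2. Of 8 high endothelial markers, Glycam1, Fut7 and Chst4 were called higher in HECs than in BECs, both without and with tumour. With tumour 1 of the 8 was called lower. Over 16 leukocyte markers, the summed level in CPM (counts scaled to a common library total) was 112 to 134 in BEC normal against 1494 to 2013 in BEC tumour, and 487 to 511 in HEC normal against 358 to 376 in HEC tumour. In HECs 1 gene, Cd68, made up 97.5% to 98.5% of the normalised counts of the 12 leukocyte markers tested, so the HEC sums describe Cd68 rather than the whole list. Without Cd68, the other 11 summed to 543 to 708 normalised counts in HEC normal and 375 to 589 in HEC tumour, which overlap, and to 709.5 to 1174 in BEC normal and 44330 to 74090 in BEC tumour. The T cell markers Cd3e, Cd3d and Cd8a were at 0 in BEC normal, HEC normal and HEC tumour. Over 11 fibroblast and pericyte markers it was 908 to 923 CPM in BEC normal against 118 to 155 with tumour, and 29.2 to 29.4 in HEC normal against 12.9 to 13.7 with tumour. Epithelial and tumour cell markers summed to 3.61 to 6.93 CPM in BEC normal and 19.95 to 93.6 in BEC tumour, and to 27.9 to 31.2 and 31.2 to 34.1 in HECs. In HECs most of this was Krt19, at means of 1865 normalised counts without and 2021 with tumour, against 132 and 42.7 for Krt18, the next highest. In BEC tumour replicate 3 stood apart, with Krt8 at 2235 against 35.3 and 179.3, and Krt18 at 1704 against 97.4 and 155.7. Pan-endothelial markers summed to 3410 to 3654 CPM in BEC normal and 2494 to 2555 in BEC tumour, and to 2624 to 2777 and 2697 to 2744 in HECs. In EO771 cells, 7 epithelial and tumour cell markers summed to 3243 to 4251 CPM with vehicle and 2184 to 2240 with 12-HETE, leukocyte markers to 16.3 to 21.3 and 18.2 to 19.2, and fibroblast and pericyte markers to 391 to 614 and 998 to 1037. Of these 11 fibroblast and pericyte markers 2 passed the filter in EO771 cells. Dcn averaged 9083 normalised counts with vehicle and 18400 with 12-HETE, and Pdgfra 75.8 and 177.6, so that sum describes Dcn rather than the list. The 12-HETE libraries lay closer to each other (chi-square per gene of 2.39 to 2.72 between pairs) than the vehicle libraries (16.5 to 46.3). Below, levels are DESeq2 normalised counts, a gene was called at an adjusted p under 0.05 with a log2 fold change over 1 in size, and p-values measure the spread between these libraries.

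Levels of different genes were compared as normalised counts per kilobase of exon. In BEC normal the highest was Igtp (2968 ± 294, SD, n = 3), before Irgm1 (2089 ± 145), Irgm2 (1756 ± 87.7) and Tgtp2 (1632 ± 132). In HEC normal Irgm1 came first (2248 ± 74.3), then Igtp (1817 ± 107). Taken gene by gene, the regulatory IRGs stood at the top of the group in both normal vessel types, and Gm12250 and Mx1 at the bottom. The places of Tgtp1 and Tgtp2 below them depend on the uncertain split of reads between these copies. A rank for the copies summed was not computed. Summed over the 10 genes, the level per kilobase was 10810 in BEC normal and 3736 with tumour, and 8271 in HEC normal and 3342 with tumour. Irgm1 made up 19.3% of that sum in BEC normal and 32.6% in BEC tumour, and 27.2% in HEC normal and 40.0% in HEC tumour.

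With tumour, 8 of the 10 members fell in each endothelial cell type, and none rose. Irgm2, Igtp, Iigp1, Tgtp1, Tgtp2, Gm12250, Mx1 and Mx2 were called lower in BEC tumour against BEC normal, a call made for 10.8% of all 18511 genes tested, and in HEC tumour against HEC normal, a call made for 3.21%. Higher calls were made for 12.4% of all genes in BECs and 4.58% in HECs. The median log2 fold change of the members was -1.79 in BECs and -1.70 in HECs, against 0.01 and 0.02 over all genes tested. In both cell types, 9 of 10 members had every tumour library below every normal library, which held for 30.4% of all genes in BECs and 24.1% in HECs. Ifi47 was the exception. Of the markers of other cells, 11 of 12 leukocyte and 6 of 7 epithelial and tumour cell markers were called higher in BEC tumour, and 0 of either list in HEC tumour, where the leukocyte marker Ptprc was called lower. Of 9 fibroblast and pericyte markers, 8 were called lower and Dcn higher in BECs, and 5 were called lower in HECs. Of 10 pan-endothelial markers, Kdr, Esam and Cldn5 were called lower in BECs, Cldn5 from 17770 to 23.8 normalised counts, and 0 in HECs. Their part in these results was not tested. In bulk libraries, fewer cells of a type and less RNA per cell cannot be told apart.

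**Figure D2:**
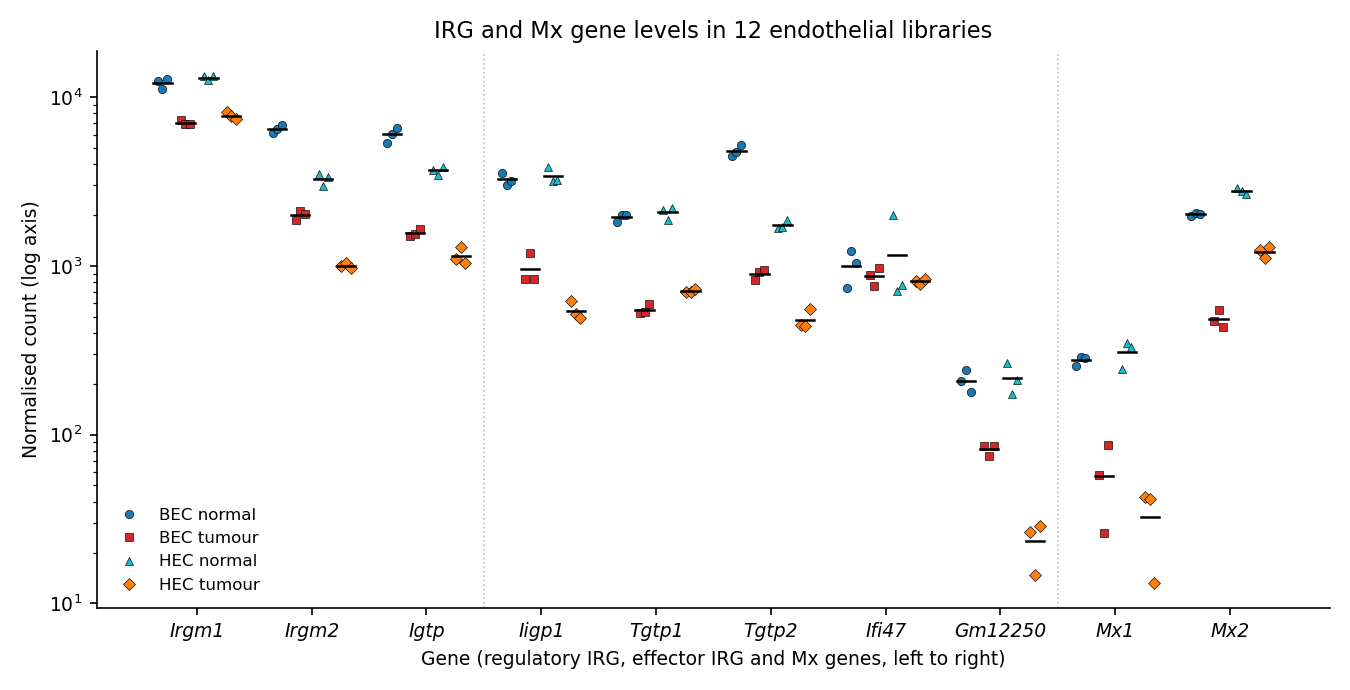
Normalised counts (log axis) of the 10 genes in the 12 endothelial libraries; each point is 1 library, each bar the mean of 3, and colours and shapes mark the groups. Tumour libraries lie below normal libraries of the same cell type for every gene except Ifi47, whose groups overlap.

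Among the regulatory IRGs, Irgm2 and Igtp fell in both cell types. Irgm2, which works on vesicle membranes, had normalised counts of 6153, 6482 and 6800 in BEC normal and 1871, 2110 and 2015 in BEC tumour. In HECs its normalised counts were 3499, 2986 and 3353 without and 995, 1040 and 966 with tumour. The groups did not overlap, and the log2 fold change of Irgm2 was -1.70 ± 0.08 (SE, adjusted p = 1.14e-89) in BECs and -1.71 ± 0.09 (adjusted p = 7.06e-84) in HECs. Igtp, also called Irgm3 and tied to lipid droplets and endoplasmic reticulum, had normalised counts of 5378, 6065 and 6563 in BEC normal and 1499, 1535 and 1653 in BEC tumour. In HECs its normalised counts were 3705, 3444 and 3873 against 1100, 1296 and 1043 with tumour. Its log2 fold changes with tumour were -1.94 ± 0.11 in BECs and -1.68 ± 0.11 in HECs, both called.

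Irgm1, the regulator most closely tied to autophagy and mitochondria, was the least altered of the 3. Its normalised counts were 12410, 11190 and 12810 in BEC normal and 7275, 6962 and 6958 in BEC tumour. In HECs they were 13300, 12560 and 13320 against 8136, 7710 and 7465 with tumour. The groups again did not overlap, and its log2 fold changes of -0.78 ± 0.07 in BECs (adjusted p = 8.27e-32) and -0.75 ± 0.07 in HECs (adjusted p = 1.27e-28) passed the p threshold but not the fold threshold. This was 1.72-fold lower in BECs and 1.68-fold lower in HECs, and was not called.

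Of the effector IRGs, 4 of 5 fell in both cell types. Iigp1 (Irga6), the best studied effector against the parasite Toxoplasma gondii, had normalised counts of 3534, 3032 and 3179 in BEC normal and 839, 1185 and 836 in BEC tumour. In HECs its normalised counts were 3829, 3178 and 3231 against 618, 516 and 488. The normal groups overlapped, and the tumour groups lay apart below them. The log2 fold change of Iigp1 was -1.77 ± 0.16 in BECs (adjusted p = 1.02e-27) and -2.66 ± 0.16 in HECs (adjusted p = 5.85e-59). Tgtp2, an effector first found in T cells, had normalised counts of 4453, 4714 and 5214 in BEC normal and 827, 925 and 941 in BEC tumour. In HECs they were 1682, 1693 and 1865 against 447, 439 and 556. Its log2 fold change was -2.42 ± 0.11 in BECs (adjusted p = 1.11e-101) and -1.86 ± 0.12 in HECs (adjusted p = 5.9e-55), with no overlap between groups. Its copy Tgtp1 had normalised counts of 1823, 1996 and 2002 in BEC normal and 526, 536 and 591 in BEC tumour, and in HECs 2135, 1879 and 2198 against 695, 699 and 731. The log2 fold changes of Tgtp1 were -1.82 ± 0.10 in BECs and -1.55 ± 0.10 in HECs. With the reads of both copies summed, the log2 fold change with tumour was -2.22 ± 0.09 in BECs and -1.68 ± 0.09 in HECs, so the calls did not rest on how reads were split.

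Gm12250 (Irgb10), which acts on bacterial membranes together with guanylate-binding proteins, was among the low members. Its normalised counts were 206, 241 and 179.8 in BEC normal and 85.3, 74.5 and 85.4 in BEC tumour. In HECs they were 265, 175 and 210.2 against 26.6, 14.8 and 28.8, the latter from deposited values of 23, 15 and 26. The log2 fold change of Gm12250 was -1.35 ± 0.27 in BECs (adjusted p = 2.51e-06) and -3.22 ± 0.31 in HECs (adjusted p = 5.49e-23).

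Ifi47 (Irgd) did not follow the other effectors. Its normalised counts were 736, 1225 and 1041 in BEC normal, 882, 764 and 964 in BEC tumour, 2014, 705 and 770 in HEC normal and 815, 778 and 836 in HEC tumour. The ranges of the 4 groups overlapped, but HEC normal and HEC tumour overlapped only through 1 HEC normal library at 2014. The other HEC normal libraries, at 705 and 770, lay below every HEC tumour library. The log2 fold changes with tumour were -0.20 ± 0.35 in BECs (adjusted p = 0.654) and -0.52 ± 0.35 in HECs (adjusted p = 0.251), with 95% intervals of -0.88 to 0.48 and -1.20 to 0.16. Without HEC normal replicate 1 the HEC value was 0.13 ± 0.21 (adjusted p = 0.707). Exons of Ifi47 overlap those of Olfr56 by 111 bases on the same strand, and Olfr56 had deposited values of 44 to 471 over the 12 libraries.

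Both Mx genes fell with tumour in both cell types. Mx2 had normalised counts of 1975, 2053 and 2033 in BEC normal and 469, 546 and 432 in BEC tumour. In HECs they were 2884, 2778 and 2673 against 1238, 1108 and 1287. Its log2 fold change was -2.07 ± 0.10 in BECs (adjusted p = 8.63e-90), a 4.19-fold fall, and its fall in HECs was 2.29-fold (adjusted p = 2.12e-32). Mx1 was lower and more variable, at 256, 288 and 283 in BEC normal and 57.5, 26.2 and 87.2 in BEC tumour. In HECs its normalised counts were 245, 350.1 and 329 against 42.7, 41.5 and 13.3. Its log2 fold change was -2.28 ± 0.45 in BECs (adjusted p = 2.16e-06) and -3.24 ± 0.47 in HECs (adjusted p = 6.84e-11).

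Whether a member moved by unequal amounts in the cell types was asked of the interaction, in which the BEC log2 fold change is subtracted from the HEC one. Of the 10 members 1 was called, Gm12250, whose log2 difference was -1.87 ± 0.42 (adjusted p = 2.99e-05), a larger fall in HECs. Over all genes 11.2% were called higher and 12.1% lower in the interaction, so 1 of 10 members is near the share of all genes. Mx2 fell less in HECs (difference 0.87 ± 0.14, adjusted p = 5.63e-09), as did Tgtp2 (0.55 ± 0.16, adjusted p = 0.00189), and Iigp1 fell more (-0.89 ± 0.23, adjusted p = 0.000297). For Mx2, Tgtp2 and Iigp1 the p threshold was passed and the fold threshold was not. For Irgm2 the difference was -0.02, with a 95% interval of -0.25 to 0.22, and for Irgm1 0.03, with an interval of -0.15 to 0.21. The difference for Mx1, -0.97, had a wide interval of -2.25 to 0.31.

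Between normal HECs and normal BECs, 1 member was called. Tgtp2 was lower in HECs, with a log2 fold change of -1.46 ± 0.11 (adjusted p = 1.52e-38), while its copy Tgtp1 stood at 0.09 ± 0.09. Summed, the copies gave -0.82 ± 0.09 (adjusted p = 1.9e-19), short of the fold threshold, so this call depends on the split of reads between them. Irgm2 (-0.98 ± 0.08, adjusted p = 2.99e-31) and Igtp (-0.71 ± 0.11, adjusted p = 1.36e-10) were lower in HECs without reaching the fold threshold, and Mx2 was higher (0.46 ± 0.10, adjusted p = 5.44e-06). The HEC and BEC libraries did not overlap for any of these 4 genes. For Irgm1, Iigp1, Tgtp1, Ifi47, Gm12250 and Mx1 they overlapped. The share of all genes without overlap was not counted for this comparison, so this describes single genes only. Of all genes, 17.1% were called higher and 15.1% lower in this comparison.

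Between HECs and BECs with tumour, Mx2 was higher in HECs, by 1.33 ± 0.10 on the log2 scale (adjusted p = 1.66e-36), and Gm12250 lower, with a log2 fold change of -1.82 ± 0.32 (adjusted p = 7.22e-08). Irgm2, at -0.998 ± 0.09 (adjusted p = 6.16e-29), lay just short of the fold threshold. Iigp1 (-0.82 ± 0.16) and Tgtp2 (-0.90 ± 0.12) were also lower in HECs and Tgtp1 (0.36 ± 0.10) higher, none past the fold threshold. Of all genes, 11.2% were called higher and 10.7% lower here. For Tgtp1 the summed copies gave -0.29 ± 0.09, a change of sign.

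Ordered by their means, the 4 groups fell into separate levels for Irgm2, Igtp and Tgtp2, from BEC normal through HEC normal and BEC tumour to HEC tumour. Mx2 ran from HEC normal through BEC normal and HEC tumour to BEC tumour, also without overlap. For Irgm1, Iigp1, Tgtp1 and Gm12250, HEC normal and BEC normal overlapped, and both tumour groups lay below them and apart from each other. HEC tumour was the higher of these for Irgm1 and Tgtp1, and BEC tumour for Iigp1 and Gm12250. For Irgm1 the log2 difference between the tumour groups, 0.14 ± 0.07, did not pass the p threshold (Wald test, adjusted p = 0.0641). For Tgtp1 the difference changed sign with the copies summed. The share of all genes whose groups separate in these ways was not counted. For Mx1 the normal groups overlapped with each other, as did the tumour groups.

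In EO771 cells, all 9 members in the table fell with 12-HETE, against 7.79% of all 11602 genes called lower and 2.38% called higher. The median log2 fold change of the members was -5.22, against 0.00 over all genes. Every 12-HETE library was below every vehicle library for all 9, which held for 30.5% of all genes. With 12-HETE, Mx2, Iigp1 and Tgtp2 were left at 0 to 4 raw counts per library, while Ifi47 kept 178 to 200. Epithelial marker sums were lower with 12-HETE, and the fibroblast and pericyte sum, which is mostly Dcn, was higher, as given above. Their part in these results was not tested. An exact two-sided permutation test of 3 libraries against 3 cannot go below p = 0.1, so the p-values rest on the model fitted across genes.

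**Figure D3:**
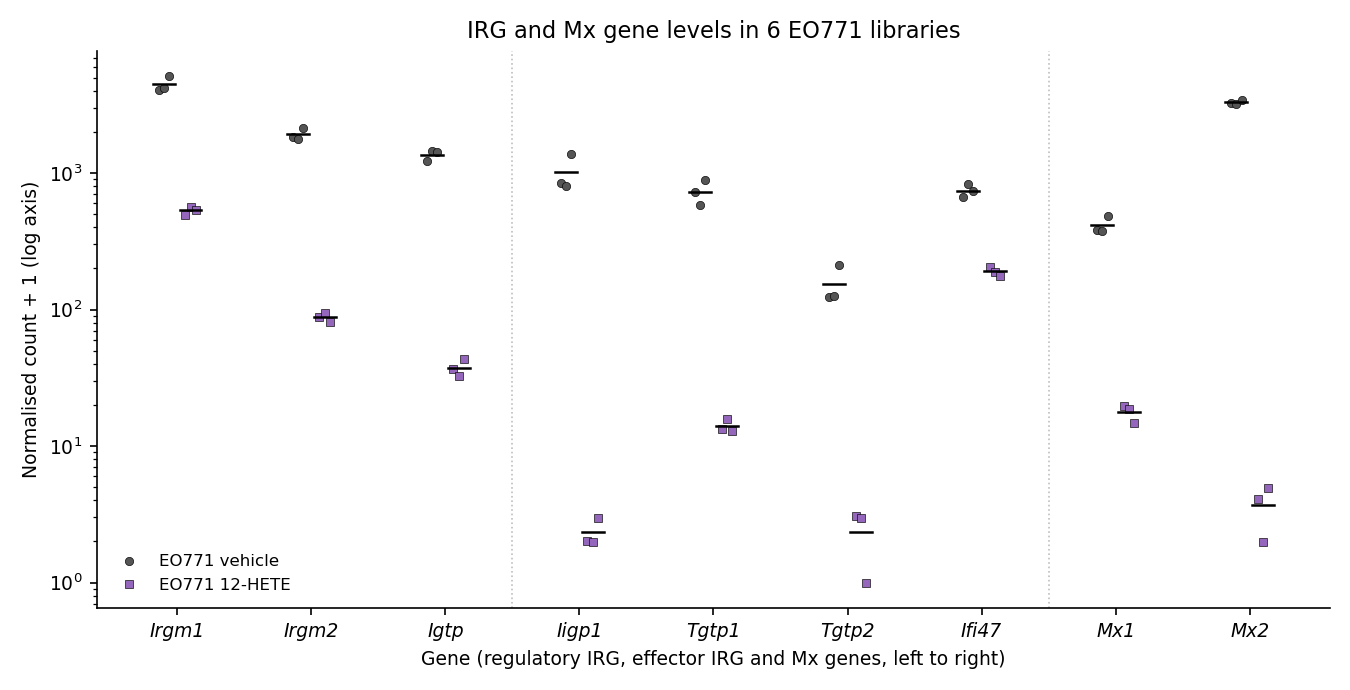
Normalised counts plus 1 (log axis) of the 9 genes in the 6 EO771 libraries; each point is 1 library and each bar the mean of 3. All 12-HETE libraries lie below all vehicle libraries, and Iigp1, Tgtp2 and Mx2, at 0 to 4 raw counts with 12-HETE, lie lowest.

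The widest change was that of Mx2. It had raw counts of 3304, 3332 and 3356 with vehicle and 3, 1 and 4 with 12-HETE. Scaled by library size, the ratio of the summed counts, 9992 to 8, was 1237, with a 95% exact counting interval of 627.5 to 2866. Per kilobase, Mx2 was the first of the 9 members with vehicle, at 912 ± 35.4 normalised counts, and the seventh with 12-HETE, at 0.74 ± 0.42. Mx1 had raw counts of 388, 390 and 469 with vehicle and 18, 18 and 14 with 12-HETE. It fell by 4.63 ± 0.27 on the log2 scale (adjusted p = 5.89e-65), which is 24.8-fold.

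Of the effector IRGs, the copies Tgtp1 and Tgtp2 and Iigp1 fell further than Ifi47. Iigp1 had raw counts of 850, 841 and 1358 with vehicle and 1, 1 and 2 with 12-HETE, a ratio of 755 with a counting interval of 294.5 to 2772. Tgtp2 had 124, 130 and 206 raw counts against 2, 2 and 0, a ratio of 114 with an interval of 44.2 to 419.8. Counting error alone thus leaves the size of these changes known only to within several fold, while their direction was shared by every library. Tgtp1 had 737, 607 and 863 raw counts against 12, 15 and 12, a log2 fold change of -5.82 ± 0.30 (adjusted p = 1.46e-82), and the summed copies gave -5.95 ± 0.29. Ifi47 changed least of the 9, with raw counts of 673, 870 and 718 against 200, 191 and 178. It fell by 1.97 ± 0.15 on the log2 scale (adjusted p = 1.01e-39), which is 3.93-fold.

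The regulatory IRGs fell in the order Igtp, Irgm2 and Irgm1. Igtp had raw counts of 1229, 1527 and 1386 with vehicle and 35, 32 and 43 with 12-HETE, a log2 fold change of -5.22 ± 0.19 (adjusted p = 3.63e-166). Irgm2 had 1858, 1869 and 2078 against 85, 95 and 81, a log2 fold change of -4.46 ± 0.15 (adjusted p = 1.8e-196). Irgm1 had 4114, 4430 and 5019 against 482, 574 and 546, a log2 fold change of -3.07 ± 0.13 (adjusted p = 4.73e-126). The 95% intervals of these log2 fold changes, -5.59 to -4.85, -4.75 to -4.17 and -3.32 to -2.82, did not overlap. With 12-HETE, Irgm1 and Ifi47 made up 41.7% and 34.9% of the summed level per kilobase, from 20.6% and 8.04% with vehicle.

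**Figure D4:**
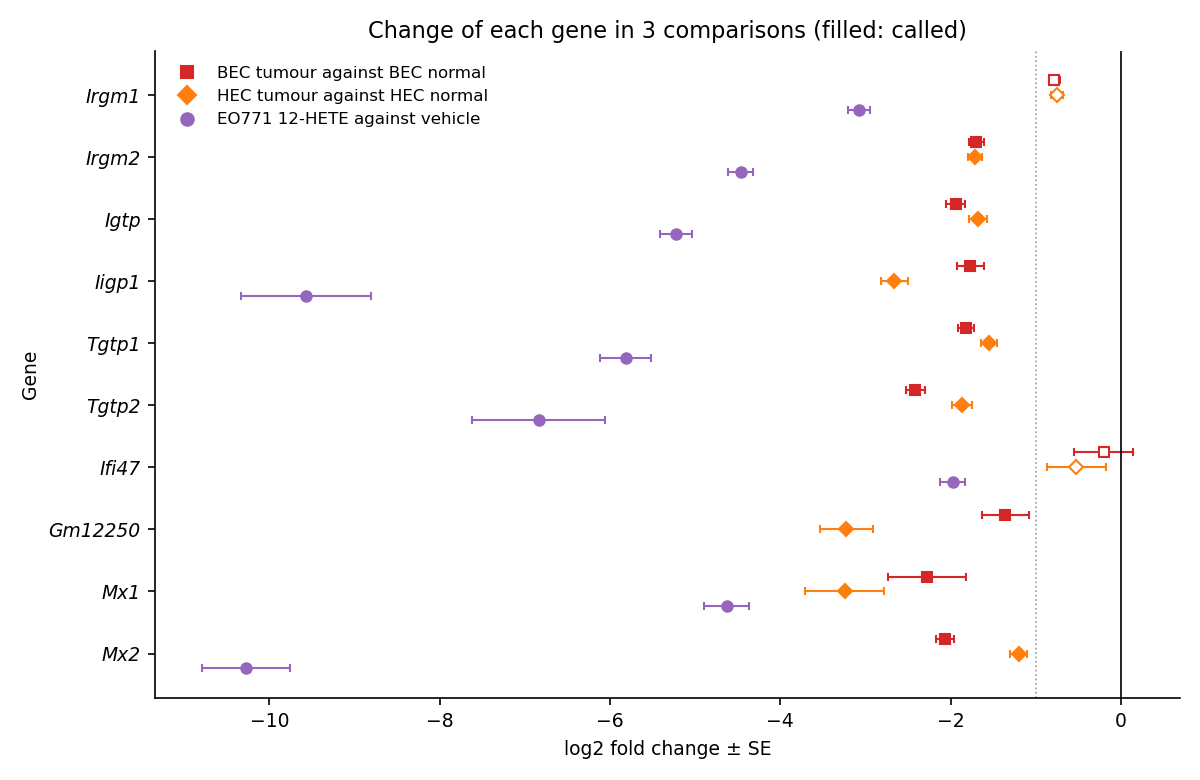
Log2 fold change ± SE of each gene in BEC tumour against BEC normal, HEC tumour against HEC normal and EO771 12-HETE against vehicle; filled symbols were called, and the dotted line marks a log2 fold change of -1. All symbols lie below 0, the EO771 values lie furthest from it, and Irgm1 and Ifi47 are the uncalled genes in both endothelial comparisons.

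Of 9 other IRG family genes 7 were tested in endothelial cells. With tumour, 1 was called lower and 3 higher in BECs, where the shares of all genes were 10.8% and 12.4%, and 1 lower and 0 higher in HECs, where they were 3.21% and 4.58%. A single gene lower of 7 is near the share of all genes in BECs. Gm4951 fell in both (log2 fold change -3.32 ± 0.33 in BECs and -3.01 ± 0.34 in HECs). 9930111J21Rik1 (1.54 ± 0.26), 9930111J21Rik2 (2.03 ± 0.28) and Gm5431 (1.94 ± 0.48) rose in BECs. In EO771 cells 6 were tested, and 3 fell and 0 rose with 12-HETE, against 7.79% and 2.38% of all genes. Those that fell were Gm5431 (log2 fold change -4.38 ± 0.32), Gm12185 (-1.87 ± 0.41) and Gm4951. Gm4951 had 148, 140 and 237 raw counts with vehicle and 0 in each 12-HETE library, at least 58.2-fold lower against a floor of 3 counts per library. Gm12185, the other gene with the paired motif arrangement, was 3.06 ± 0.26 higher on the log2 scale in HEC normal than in BEC normal, and it shares exon bases and transcript windows with Tgtp1, so its reads are uncertain too.

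Guanylate-binding proteins, larger GTPases that act with IRGs at pathogen vacuoles, were the next list. Of 10 tested in endothelial cells, 4 fell and 2 rose in BECs with tumour, against 10.8% and 12.4% of all genes, and 6 fell and 0 rose in HECs, against 3.21% and 4.58%. Gbp2 and Gbp3 fell in HECs (log2 fold changes -1.62 ± 0.07 and -1.46 ± 0.07), as did Gbp5 (-2.68 ± 0.17). Gbp4 (-2.40 ± 0.14), Gbp3 (-1.02 ± 0.07) and Gbp9 (-1.33 ± 0.13) fell in BECs. Gbp5 (1.56 ± 0.16) and Gbp8 (1.57 ± 0.47) rose in BECs and are named after their values were seen. In EO771 cells 7 of 8 tested fell and 0 rose, against 7.79% and 2.38% of all genes, with Gbp2 (-5.69 ± 0.27), Gbp7 (-4.42 ± 0.35) and Gbp9 (-4.42 ± 0.46) having the largest statistics. The list's median log2 fold change was -0.71 in BECs, -1.54 in HECs and -4.86 in EO771 cells.

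Of 16 interferon receptors and signal transducers, 3 fell in BECs, 4 in HECs and 6 in EO771 cells, against 10.8%, 3.21% and 7.79% of all genes, and 0 rose in each. The BEC count is not far from the share of all genes. Usp18, the protease that damps the type I interferon receptor, had log2 fold changes of -2.37 ± 0.09 in BECs, -2.39 ± 0.09 in HECs and -4.73 ± 0.11 in EO771 cells. Stat2, a subunit of the complex that binds ISRE elements, fell in HECs (-2.20 ± 0.17) and in EO771 cells (-4.34 ± 0.10), and Irf9, the DNA-binding subunit of that complex, fell in EO771 cells (-3.51 ± 0.10). The receptor genes Ifngr1, Ifngr2, Ifnar1 and Ifnar2 were not called in any of the 3 comparisons, with log2 fold changes between -0.44 and 0.24.

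Of 10 interferon ligand genes, 1 passed the filter in endothelial cells and 0 in EO771 cells. Interferon-γ (Ifng) was at 0 in all EO771 libraries and in 11 of the 12 endothelial libraries, with a deposited value of 3 in the other. Interferon-β (Ifnb1) had normalised counts of 51.2, 34.1 and 11.2 in BEC normal, 7.42, 11.8 and 14.8 in BEC tumour, 18.3, 15.3 and 10.5 in HEC normal and 0, 7.89 and 0 in HEC tumour, and was not called. In EO771 cells its raw counts, below the filter, were 8, 14 and 15 with vehicle and 0, 3 and 2 with 12-HETE. Of the lambda interferons, Ifnl3 had raw counts of 9, 20 and 16 with vehicle and 0 in each 12-HETE library.

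Genes that share only the enzyme fold or the membrane machinery were called at about the share of all genes or below it in BECs and EO771 cells (10.8% and 7.79% lower). Of 10 other dynamin-related GTPases, Dnm1 was called lower in BECs with tumour (log2 fold change -1.87 ± 0.21) and 0 in HECs, and 0 of 9 in EO771 cells. Of 11 ATG8 conjugation genes, 0 were called in BECs, Gabarapl1 fell in HECs (-1.10 ± 0.42) and Map1lc3a in EO771 cells (-1.04 ± 0.27). In HECs this was 1 of 11, where 3.21% of all genes were called lower. Gabarapl1 had normalised counts of 11670, 13650 and 4922 in HEC normal and 7574, 3367 and 3186 in HEC tumour, which overlap. The list medians in BECs, HECs and EO771 cells were -0.05, 0.07 and 0.33 for the dynamin-related genes. For the ATG8 genes they were -0.55, 0.02 and -0.02.

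**Figure D5:**
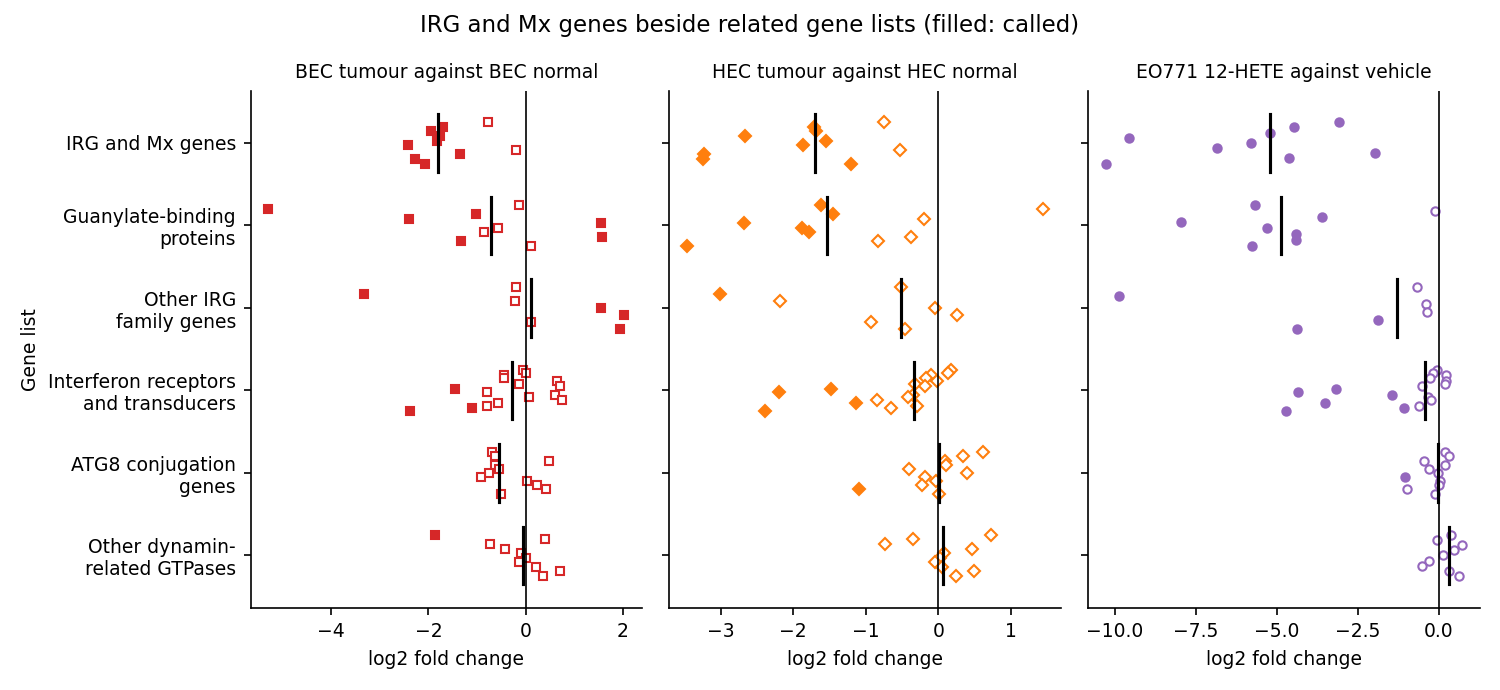
Log2 fold changes of the members and of 5 related gene lists in 3 comparisons; each symbol is 1 gene, filled where called, and the black bar is the list's median. The members and the guanylate-binding proteins lie to the left in the HEC and EO771 panels. There ATG8 conjugation genes and other dynamin-related GTPases lie around 0. In the BEC panel the medians are -1.79 for the members, -0.71 for guanylate-binding proteins, -0.55 for ATG8 genes and -0.05 for dynamin-related genes.

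Across the 12 endothelial libraries, each member was compared with the mean z-score of all 10 on the log2 scale. Pearson's r was 0.91 to 0.97 for Irgm1, Irgm2, Igtp, Iigp1, Tgtp1, Tgtp2, Gm12250 and Mx1, 0.77 for Mx2 and 0.45 for Ifi47, and each gene is part of that score. The 5 other genes most like the score were Dtx3l, Usp18, Isg15, Glipr2 and Parp11 (r of 0.98 to 0.99). Isg15, an interferon-induced ubiquitin-like protein, averaged 22850 normalised counts in BEC normal and 5895 in BEC tumour, and 16560 in HEC normal and 4376 in HEC tumour. These are descriptions over 12 libraries in 4 groups, which share depth and group means, and carry no test.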

How the data were processed

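Mouse RNA was sequenced in 12 libraries of sorted endothelial cells and 6 of EO771 cells, in 6 groups of 3 given by the labels. For the endothelial libraries the authors deposited whole-number values per Ensembl gene, used here as estimated counts. They were not taken as raw counts because low values piled up at 4, 8 and 12. The best regular spacing in a search from 3 to 5 was about 3.71 (3.6 to 3.73 per library). Of the values from 1 to 20, 33.0% lay on rounded multiples of 3.71, so they were not confined to it. For EO771 the authors deposited raw counts per gene symbol. Per the study's methods, reads were aligned to GRCm38 with STAR and fragments counted with featureCounts. The strand setting and the treatment of reads that map to several genes are not given in the sources used here, and the library kit is named differently in methods and labels. Of the endothelial identifiers 260 had no match in the annotation, and 33 EO771 symbols stood on several lines. Deposited totals were 56.4 to 79.4 M in the endothelial and 17.3 to 18.6 M in the EO771 libraries. How the endothelial units relate to fragments is not known, so these totals do not compare depth. Intervals from counts cover counting error only.

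Rows with a mean under 10 were removed. DESeq2 1.42.0 in R 4.3.3 gave two-sided Wald tests with Benjamini-Hochberg adjustment over all genes tested, in 1 fit of 12 endothelial libraries and 1 of 6 EO771 libraries, with group as the term. Alternatives were edgeR 4.0.16, other scaling, other filters, fits of only the groups compared, summed Tgtp copies, a replicate block and leaving out each library. In a check of shared deviations, same-numbered EO771 libraries had correlations of 0.12, 0.19 and 0.36, and libraries of other numbers -0.25 to 0.06. These few values are weak and depend on each other, and no label pairs the libraries, so pairing is not settled. The p-values given come from the unpaired fit, and the blocked fit changed no call of a member. The same check gave -0.07 to 0.22 in the endothelial groups, which were left unpaired. The fitting steps were tested on simulated data. Counts per kilobase use the union of annotated exons. The members, lists and tests were chosen with earlier results of these data known. All 10 members are named, with up to 3 called genes of the largest statistic per list and comparison. A gene of the receptor and transducer list is not reported here.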

Additional observations from a re-analysis of the deposited data

Results flagged for a closer look

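For 4 genes, the interaction in DESeq2 between cell type and tumour had an adjusted p under 0.05 over all genes tested, so their log2 changes were unequal in HECs and BECs. Gm12250 fell more in HECs, by a log2 difference of -1.87, and Iigp1 likewise, by -0.89. Mx2 fell less in HECs, by a log2 difference of 0.87, and Tgtp2 likewise, by 0.55, where reads shared with Tgtp1 leave the value uncertain. Of the 4, only the difference for Gm12250 was over 1 in size, and its 3 HEC tumour libraries had deposited values of 23, 15 and 26. The share of all genes passing the p threshold alone was not counted, so the 4 describe single genes and not the members as a set. With the fold threshold added, 11.2% of all genes were called higher and 12.1% lower.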

How the results depend on the processing

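The calls with tumour and with 12-HETE (8, 8 and 9 members lower) held under all alternatives run. Of 870 alternative values of single genes, 842 kept direction and side of the threshold, 11 newly passed it, 1 no longer did and 16 changed sign, none of these 16 from or to a called value. With the replicate block the counts stayed at 8 lower in BECs, 8 in HECs and 9 in EO771 cells, and it changed no other call. In HEC tumour against BEC tumour, the count of members lower was 1 and became 2 with edgeR, TMM factors, no filter or only the 2 groups compared, each by Irgm2 crossing a log2 fold change of -1, and ran from 1 to 2 when libraries were left out. It was 2 without BEC tumour replicate 1 or HEC tumour replicate 2 (Irgm2), BEC tumour replicate 2 (Mx1, -1.16) or HEC tumour replicate 3 (Tgtp2, -1.02). Left-out libraries gave the same range, 1 to 2, in HEC normal against BEC normal (Irgm2, without BEC normal replicate 1 or HEC normal replicate 1) and in the interaction (Mx1, -1.31, without BEC tumour replicate 2). Summing the Tgtp copies turned Tgtp1 to -0.82 in HEC normal against BEC normal and to -0.29 in HEC tumour against BEC tumour. With libraries left out, signs turned in HEC normal against BEC normal for Iigp1 (-0.0148 to 0.13), Ifi47 (-0.43 to 0.48) and Gm12250 (-0.11 to 0.19). In HEC tumour against HEC normal, Ifi47 ran from -0.79 to 0.13, and in the interaction from -0.59 to 0.33, the turn coming without HEC normal replicate 1. In the interaction Irgm1 ran from -0.0049 to 0.0944 (-0.0282 with edgeR and -0.028 with TMM factors) and Irgm2 from -0.0856 to 0.0282. The count of all EO771 genes higher, 276, was 182 at a mean of at least 50 and 511 without vehicle replicate 3, where the count lower, 904, was 632 and 945. The cause of these shifts was not tested. Depth limits Iigp1, Tgtp2 and Mx2 with 12-HETE, which rest on 0 to 4 counts per library.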
